A study of Mus musculus with 102 samples.

Results

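The comparison described here set epidermal stem cells of aged mice under calorie restriction (CR) at zeitgeber time 12 h (ZT12) against those of adult mice on the same diet at the same time. It was chosen by the labels for age, diet and time point. The labels put 9 of the 102 arrays of the series in it, 4 from aged mice of 83 to 97 weeks and 5 from adult mice of 47 to 57 weeks. All mice were C57B6/J and carried Per1-Venus, a bacterial artificial chromosome that reports Per1 activity; whether the Per1 probe set also reads transcripts of the transgene was not tested. The CR mice of both ages received 30% less food than the ad libitum group for 25 weeks, after 3 weeks in which food was lowered by 10% per week. The other groups used below were aged and adult CR mice at ZT0, ZT4, ZT8, ZT16 and ZT20 (46 arrays in all), and aged and adult mice with free access to control diet at ZT12 (8 arrays). The samples are labelled as epidermal stem cells from epidermis, with no sorting step in the labels used here, and no sex is given. Per the design text, 1 mouse per diet group was collected on a given day, at a single time point; the day of each array is not in the labels, so the part of collection day in an age difference cannot be told apart from age.

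Zeitgeber time counts from lights on, so ZT12 is the change from light to dark. The circadian clock is a feedback loop in which Arntl (Bmal1) with Clock or Npas2 drives the Per, Cry, Nr1d and PAR-domain genes, whose proteins in turn repress the loop or act on its outputs. In mouse epidermis the clock times DNA synthesis and responses to stress in basal stem cells, which sit on a basement membrane of laminins and type IV collagen and feed the layers above. CR lowers insulin and IGF signalling and resets the daily timing of many tissues to the meal.

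RNA was read on Affymetrix arrays as log2 values, where 1 unit is a 2-fold difference. Of 17097 genes named by a probe set, 13383 passed a filter on dim signal. All 12 basal keratinocyte markers on the array passed that filter, and the mean of these markers was 11.41, 11.44, 11.33 and 11.38 in the aged arrays, against 11.54, 11.34, 11.34, 11.39 and 11.35 in the adult arrays. Basal keratinocyte markers were thus bright in all 9 arrays. Passing the filter does not single out basal cells, since all 11 T cell markers on the array passed it too. Whether the cells were stem cells was not tested. Of the bulge hair follicle markers 11 of 14 passed, with Cd34, Lgr5 and Lhx2 below the threshold. The samples were bulk RNA, in which fewer cells of a type and less RNA per cell cannot be told apart.

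The 9 arrays were not alike. The 90th percentile of signal, which marks how far an array spreads above its background, was 9.07, 8.80, 8.82 and 9.10 in aged arrays 1 to 4, against 9.09, 9.11, 9.01, 9.02 and 8.89 in adult arrays 1 to 5. Aged arrays 2 and 3 ranked 8 and 12 from the lowest among all 102 arrays. Xist stood above the Y-linked genes in 1 of 4 aged arrays, against 3 of 5 adult arrays, so the groups also differed in the sex of the mice. Fits with these measures as covariates and fits without those arrays are given with the counts below.

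No gene passed the test at ZT12 under CR. limma's fit across all 102 arrays called 0 of 13383 genes (percent called 0) at an adjusted p under 0.05, and the smallest adjusted p was 0.999. At an unadjusted p under 0.05 there were 291 genes (2.17%), 55 higher (0.411%) and 236 lower (1.76%) in aged mice, where 669 would be expected by chance. Without aged array 1 this number was 768, without aged array 4 it was 506, without adult array 5 it was 465 and without adult array 2 it was 147. With aged arrays 2 and 3 both left out it was 552, and among the arrays with Y-linked genes above Xist, 3 aged and 2 adult, it was 38; none of these fits called a gene. With the level of Xist minus that of the Y-linked genes as a covariate it was 255 (56 higher and 199 lower), and with the 10th percentile of each array, a measure of its background, it was 491 (151 higher and 340 lower), again with 0 called.

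The data bounded the difference between the groups, gene by gene, as well as leaving it uncalled. The groups also differed in the sex of the mice, and collection day cannot be told apart from age. The median difference over all genes was -0.04 log2 units, and 95% of the differences lay between -0.36 and 0.25. For 13094 genes (97.8%) the 95% interval of the difference lay within 1 log2 unit of 0, and for 10587 (79.1%) it lay within 0.6. In 8396 genes (62.7%) the aged mean was the lower one, and in 4987 (37.3%) it was the higher one. The share lower in aged mice was 54.4% when the arrays were quantile normalized again, and 68.5% when they were centred on their median. The genes at an unadjusted p under 0.05 were 104 higher and 198 lower with the first scaling, and 52 higher and 270 lower with the second. Only 6 genes differed by over 1 log2 unit; the largest differences in either direction were in Ssty2, a Y-linked gene (2.06), and in Xist (-1.75).

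The genes with the smallest p in each direction are given as values, since none passed the test. Among the 10 that were higher in aged mice, Slc1a5, a transporter of glutamine and other neutral amino acids, read 6.02, 5.87, 6.24 and 6.29 in aged arrays, against 5.73, 5.66, 5.49, 5.72 and 5.61 in adult arrays. Every aged array lay above every adult array, and the difference was 0.46 ± 0.14 (SE; limma's unadjusted p = 0.0013, adjusted p = 0.999). Has1, a hyaluronan synthase, read 6.86, 7.17, 6.93 and 6.98 in aged arrays, against 6.60, 6.17, 6.45, 6.74 and 6.60 in adult arrays. Again the groups were apart, by 0.47 ± 0.14 (SE; limma's adjusted p = 0.999).

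Tmem269 was the other gene of the 10 whose groups did not overlap, with 6.18, 6.58, 6.20 and 6.34 in aged arrays, against 5.96, 6.11, 5.83, 5.87 and 6.05 in adult arrays (difference 0.36). Over all genes every aged array was above every adult array in 17 (0.127%) and below in 93 (0.695%), so groups that do not overlap were to be found in the table at this rate. In the other 7 the groups overlapped. Dnmt3b, which sets new DNA methylation, differed by 0.37, and its aged arrays read 5.73, 5.20, 5.49 and 5.58, against 5.44, 4.87, 5.16, 5.17 and 5.03 in adult arrays. Tas1r3, a subunit of the sweet and umami taste receptors, differed by 0.49 through aged arrays 2 and 3, which read 7.21 and 7.18 while aged arrays 1 and 4 read 6.46 and 6.58, against 6.14 to 6.82 in adult arrays. Slc2a6, a member of the glucose transporter family (0.29), Bean1 (0.35), Afp, a secreted protein of fetal liver (0.33), Hid1 (0.32) and Rpf1, a ribosome biogenesis factor (0.44), completed the set; a second bright probe set of Afp differed by -0.03.

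Among the 10 that were lower in aged mice, Col6a1, a chain of the microfibril-forming type VI collagen, had the widest gap. It read 6.53, 5.78, 6.65 and 6.11 in aged arrays, against 7.28, 7.93, 7.26, 6.84 and 7.22 in adult arrays. No aged array reached the lowest adult array, and the difference was -1.04 ± 0.34 (SE; 95% interval -1.72 to -0.36; limma's unadjusted p = 0.0030, adjusted p = 0.999). Rcan3, a regulator of calcineurin, read 5.91, 5.55, 5.29 and 5.99 in aged arrays, against 6.29, 6.95, 6.44, 6.09 and 6.11 in adult arrays, also without overlap (-0.69 ± 0.20, SE). Col4a2, a chain of the basement membrane collagen, read 6.32, 5.84, 5.93 and 5.78 in aged arrays, against 6.60, 6.83, 6.76, 6.56 and 6.51 in adult arrays (-0.69 ± 0.23, SE). These groups too were apart.

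Rgma, a co-receptor for bone morphogenetic proteins, and Ltbp1, which holds latent TGF-beta in the matrix, were the other genes with every aged array below every adult array. Rgma spanned 6.63 to 6.89 in aged arrays and 6.92 to 7.48 in adult arrays (-0.45), and Ltbp1 spanned 4.69 to 4.98 in aged arrays and 5.19 to 5.70 in adult arrays (-0.62). Timeless, which protects replication forks, read 6.19, 5.82, 5.71 and 6.47 in aged arrays, against 6.75, 6.74, 6.80, 6.72 and 6.24 in adult arrays (-0.60 ± 0.20, SE), and adult array 5 lay among the aged ones. Ankrd6, a component of Wnt signalling, had the smallest unadjusted p of all genes, 0.0008 by limma, with a difference of -0.38 ± 0.11 (SE); aged array 2, at 5.63, met the lowest adult arrays. Klhl23 (-0.41), Wdr60, a part of the dynein motor of cilia (-0.43), and Tex9 (-0.36) overlapped as well. The plot of values by array shows which groups were apart.

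**Figure D1:**
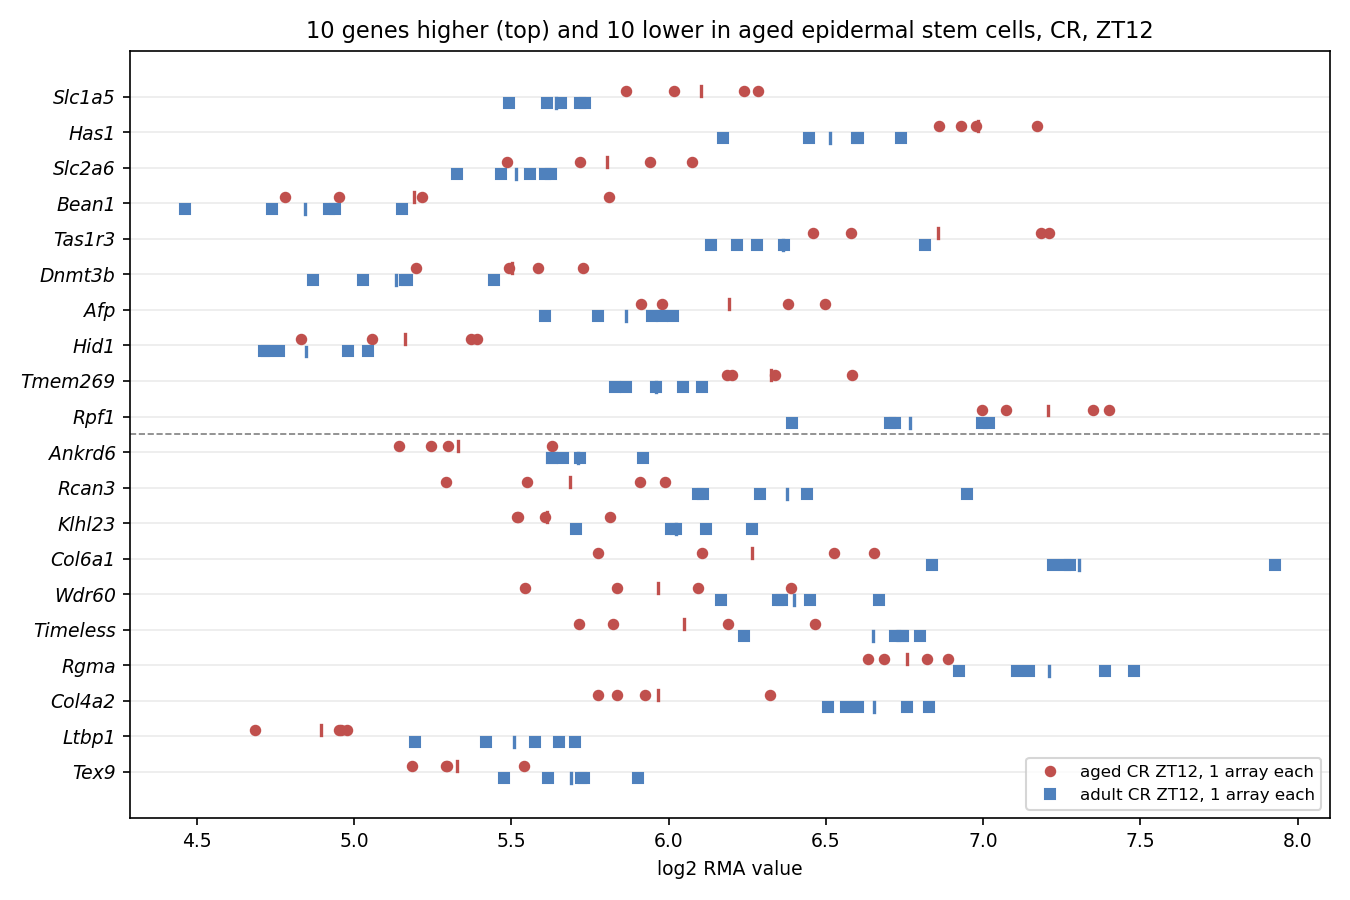
Log2 value of each array (x axis) for the 10 genes of smallest p that were higher (above the dashed line) and the 10 that were lower in aged mice (y axis), with 4 aged arrays as circles over 5 adult arrays as squares and the group mean as a short bar. The groups are apart in 3 genes of the upper set and 5 of the lower set, and the widest gap is that of Col6a1.

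These 20 genes were chosen for their difference at ZT12 under CR, so their differences elsewhere are the values that the choice did not fix. On control diet at ZT12, in other mice, 2 of the 10 higher genes and 5 of the 10 lower genes had the same sign, against 50.2% of all genes. At the other 5 times under CR the sign was the same in 29 of 50 comparisons for the higher genes and in 37 of 50 for the lower ones. Over all genes the sign was the same in 53.7% of such comparisons for those higher in aged mice at ZT12 and in 54.9% for those lower. Col6a1 was lower in aged mice at each of them, by -0.06 to -0.54, and on control diet at ZT12 it differed by 0.09. Ltbp1 likewise was lower at each of the other 5 times, by -0.03 to -0.46, and by -0.45 on control diet. Slc1a5 and Has1 differed by -0.04 each on control diet and lay on both sides of 0 at the other times.

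**Figure D2:**
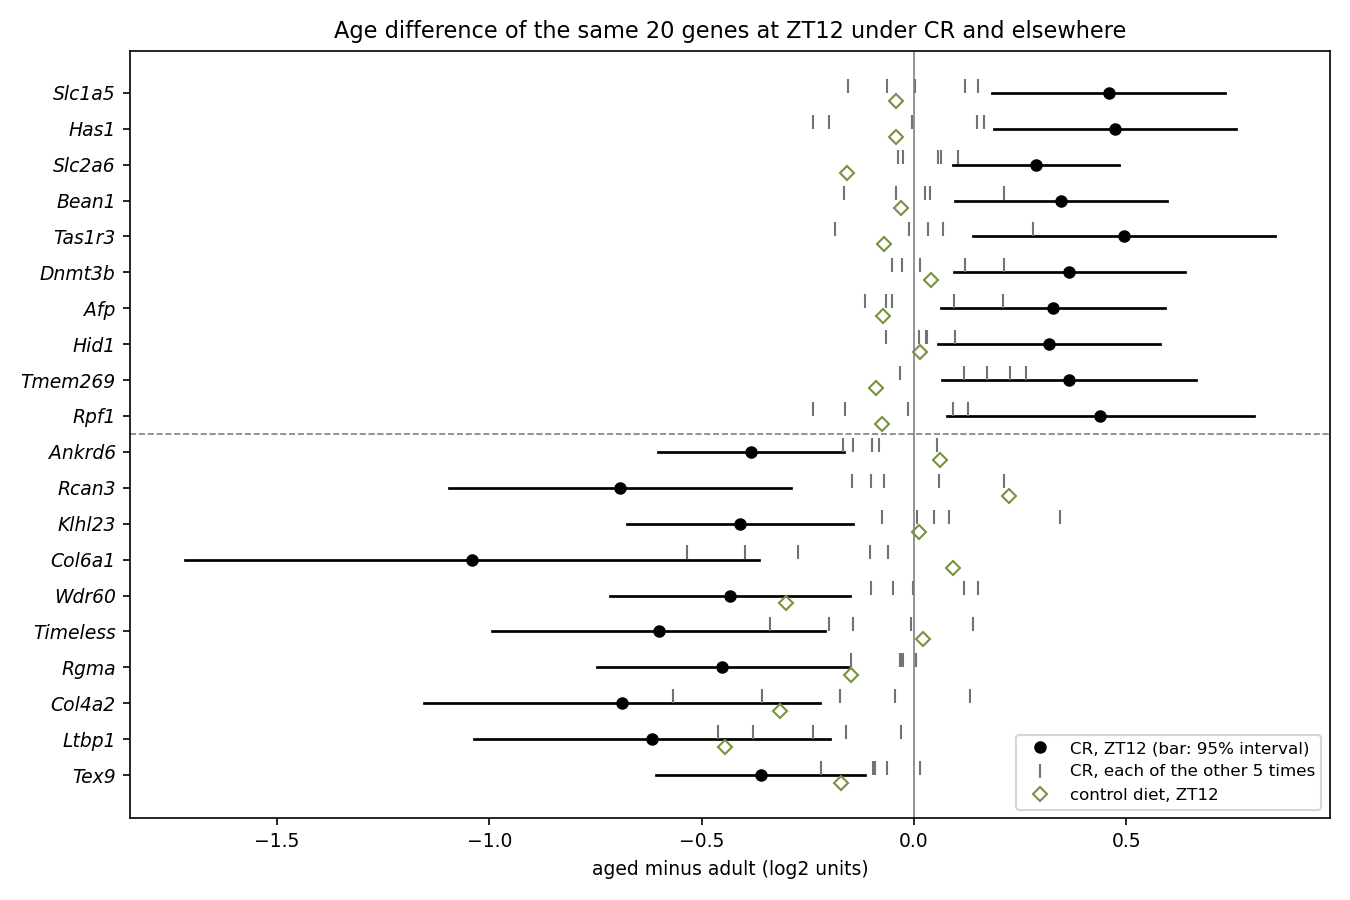
Aged minus adult difference in log2 units (x axis) for the same 20 genes (y axis): at ZT12 under CR as filled circles with 95% intervals, at each of the other 5 times under CR as ticks, and at ZT12 on control diet as open diamonds. The diamonds of the upper set lie near 0, and Col6a1 and Ltbp1 lie left of 0 at all CR times.

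The tests of the difference itself called no gene either. For the age difference under CR minus that on control diet at ZT12, 0 genes passed limma's test and 101 (0.755%) had an unadjusted p under 0.05, 43 positive (0.321%) and 58 negative (0.433%). The smallest p values belonged to Slc2a6 (0.45), Rcan3 (-0.91), Tefm, a mitochondrial transcription factor (-0.61), Ankrd6 (-0.45), Cyp27b1, which makes active vitamin D (-0.41), and Pnpla6, a phospholipase (0.54), all at an adjusted p of 1.00. For Rcan3 this joins -0.69 under CR with 0.22 on control diet. For the age difference under CR at ZT12 minus its mean at the other 5 times, 0 genes passed limma's test and 176 (1.32%) had an unadjusted p under 0.05, 34 positive (0.254%) and 142 negative (1.06%). Klhl23 (-0.49), Has1 (0.50), Rcan3 (-0.68), Slc1a5 (0.45), Tmc1 (-0.37) and Wdr60 (-0.46) led that test, with adjusted p of 1.00.

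On control diet at ZT12 limma's test likewise passed 0 genes, and 79 (0.59%) had an unadjusted p under 0.05, 19 higher (0.142%) and 60 lower (0.448%) in aged mice. Across the 13383 genes, which are not independent replicates, the differences on the 2 diets correlated with r = 0.0924. Under CR, limma called 2 genes (0.0149%) at ZT0 and 0 at each of ZT4, ZT8, ZT16 and ZT20. The genes at an unadjusted p under 0.05 numbered 1156 at ZT0 (8.64%), 520 at ZT4 (3.89%), 701 at ZT8 (5.24%), 236 at ZT16 (1.76%) and 41 at ZT20 (0.306%).

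The clock genes are described in order of their roles. Of 22 listed, 19 were found on the array by symbol, and 18 of these passed the dim filter. Among the 18, 13 were lower and 5 higher in aged mice, with a median difference of -0.09. None passed the test, and none had groups that did not overlap. Leaving out single arrays, rescaling, or leaving out aged arrays 2 and 3 together gave 9 to 14 lower members; the 9 came without aged array 3, where the median was -0.01.

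In the activating limb, Arntl read 8.48, 8.48, 7.48 and 8.94 in aged arrays, against 8.04, 6.01, 6.98, 8.63 and 7.54 in adult arrays. The aged mean was higher by 0.90 ± 0.44 (SE; limma's unadjusted p = 0.041, adjusted p = 0.999), but the adult arrays spanned over 2 units and the groups overlapped. Its partner Clock read 6.92 and 6.79 in aged arrays 1 and 4 and 5.90 and 5.88 in aged arrays 2 and 3, against 6.41 to 6.53 in adult arrays. The mean difference of -0.09 for Clock thus joined aged arrays on both sides of the adult ones, and without aged array 2 or 3 it was 0.07. Npas2, the alternative partner, read 8.04 and 7.88 in aged arrays 2 and 3 and 7.42 and 7.28 in aged arrays 1 and 4, against 7.44 to 7.85 in adult arrays (0.08; -0.13 on its other probe set).

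In the repressing limb, Per1 read 9.52, 9.16, 8.79 and 9.29 in aged arrays, against 9.63, 9.31, 9.61, 9.48 and 9.66 in adult arrays (-0.35 ± 0.23, SE; limma's unadjusted p = 0.13). Per3 differed by -0.38 ± 0.30 and Per2 by -0.07 ± 0.18 (SE), with overlap in both. The cryptochromes gave 0.19 for Cry1, whose aged arrays spanned 5.85 to 7.30 against 5.96 to 6.81 in adult arrays, and -0.11 for Cry2. Nr1d2 (Rev-erb beta), which represses Arntl, differed by -0.25, and Rora, which activates it, by -0.03. Bhlhe40, another repressor of the loop, read 9.93, 10.51, 9.49 and 10.38 in aged arrays, against 10.30, 9.71, 9.46, 9.90 and 9.28 in adult arrays (0.35). Ciart, which represses the activating limb, differed by -0.09. The kinases that mark Per proteins differed by -0.08 (Csnk1d, with 0.12 to 0.20 on its other probe sets) and -0.19 (Csnk1e).

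Among the outputs, Dbp, the PAR-domain factor with the widest change between ZT8 and ZT16 of these genes in adult CR mice, read 7.28, 7.29, 6.62 and 7.49 in aged arrays, against 8.02, 7.77, 8.28, 7.83 and 7.40 in adult arrays. The difference was -0.69 ± 0.29 (SE; limma's unadjusted p = 0.021, adjusted p = 0.999), and adult array 5 lay among the aged arrays. Dbp shares part of its locus with Sphk2, so its probe set could not be told apart from that neighbour here. On control diet at ZT12 Dbp differed by 0.15, and the difference between the diets was -0.85 (limma's unadjusted p = 0.052, adjusted p = 1.00). The related factors Tef (-0.13) and Hlf (-0.21) overlapped, as did Nfil3 (0.24), which binds the same sites as a repressor.

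**Figure D3:**
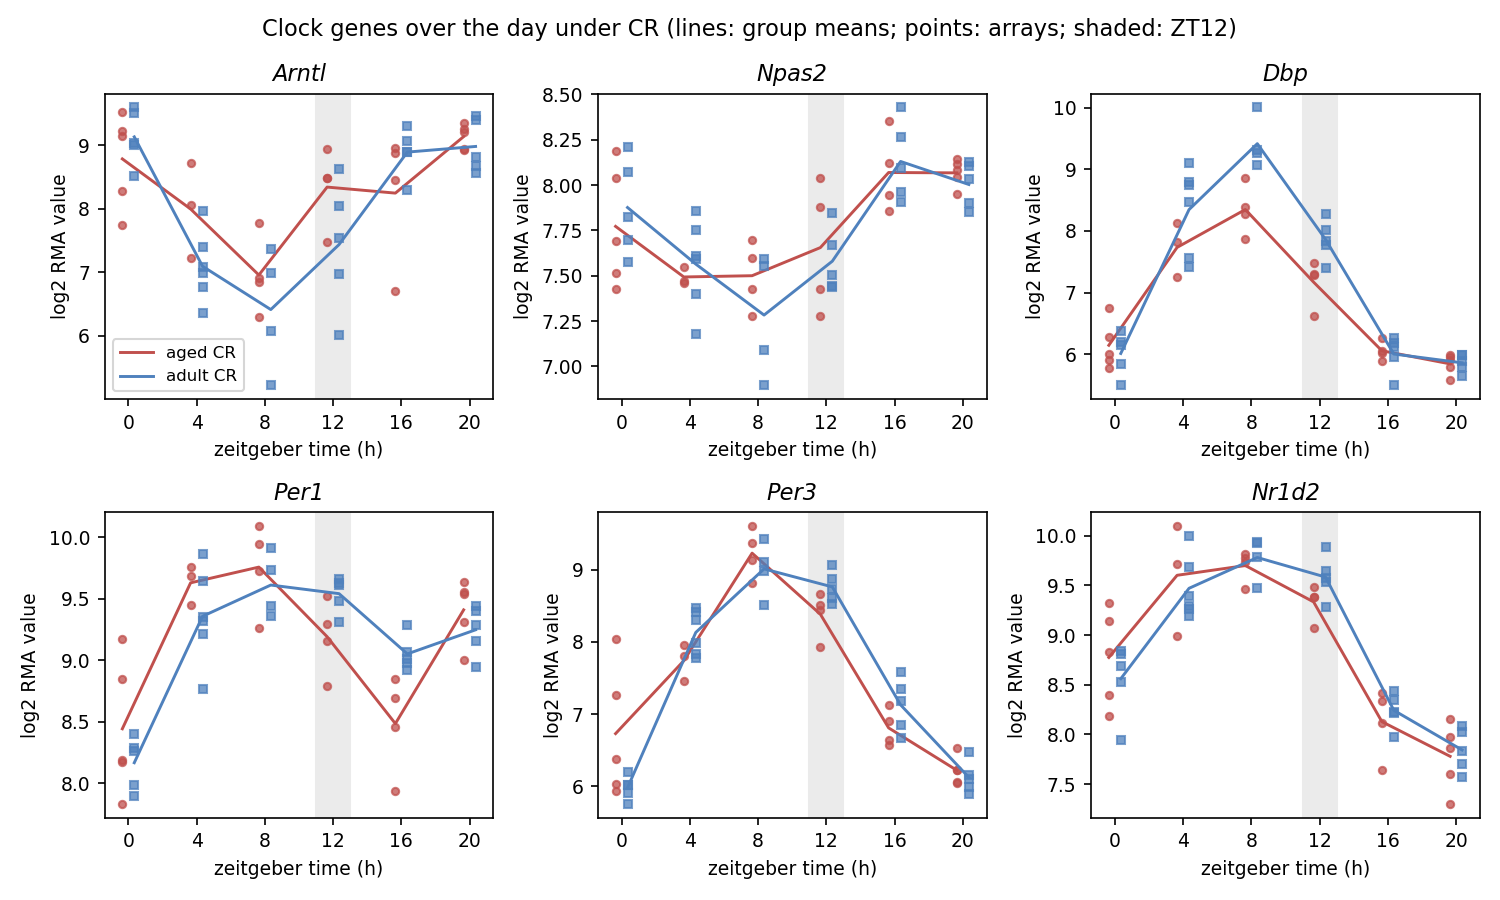
Log2 value (y axis) of 6 clock genes against zeitgeber time in hours (x axis) under CR, with aged arrays as circles and adult arrays as squares, and lines through the group means. At ZT12 (shaded) the aged points of Arntl average 8.35 over an adult mean of 7.44, those of Dbp average 7.17 under an adult mean of 7.86, and in adult mice both genes are on a steep part of their curve.

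ZT12 lies between times at which the levels of these genes differ widely. In aged CR mice Dbp averaged 8.35 at ZT8, 7.17 at ZT12 and 6.06 at ZT16, and in adult CR mice it averaged 9.42, 7.86 and 6.00 at these times. Arntl averaged 6.96, 8.35 and 8.25 at ZT8, ZT12 and ZT16 in aged CR mice, and 6.42, 7.44 and 8.90 in adult CR mice. The sign of the age difference at ZT12 was therefore set beside the sign of the change between ZT8 and ZT16, which rests on other arrays; this comparison was chosen after the values were seen. The signs were the same in 16 of 18 clock genes for the change in aged mice, against 53.8% of all genes, and in 14 of 18 for the change in adult mice, against 72.4% of all genes. Across the 18 genes the age difference correlated with the change in aged mice at r = 0.80 and with that in adult mice at r = 0.87; over all 13383 genes these were 0.17 and 0.56. The points share arrays within each axis and are not independent, and Dbp and Arntl lie at the ends of the cloud.

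**Figure D4:**
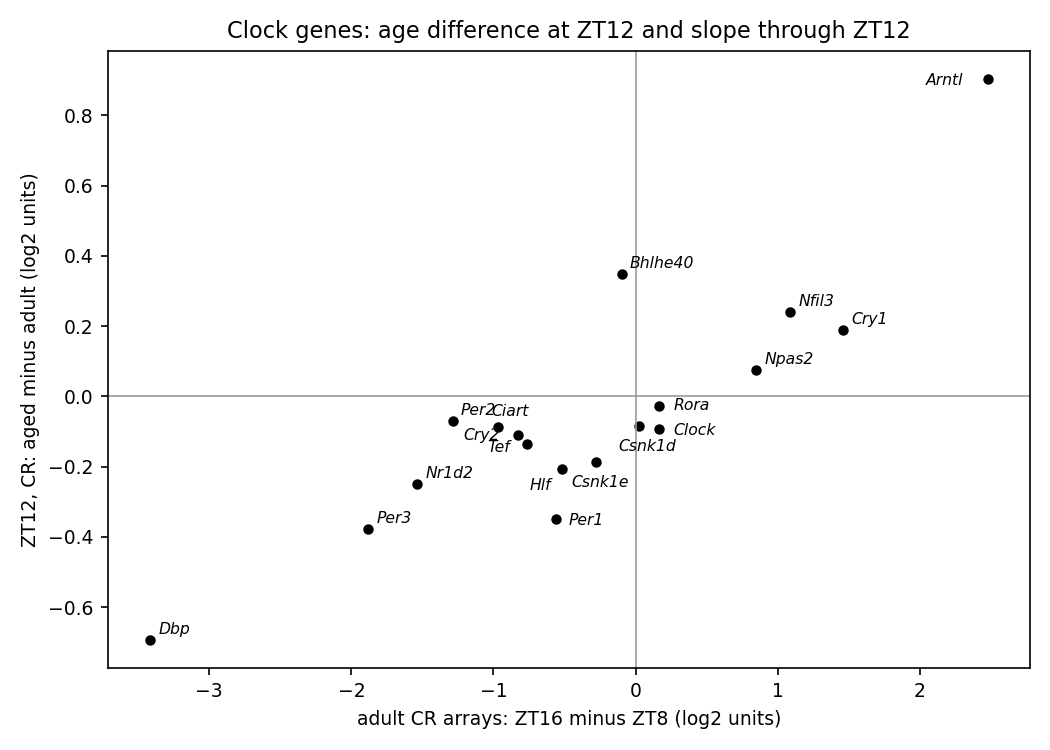
Aged minus adult difference at ZT12 under CR (y axis) against the ZT16 minus ZT8 change in adult CR arrays (x axis), both in log2 units, for 18 clock genes. Arntl and Dbp stand at opposite corners, at 0.90 and -0.69 on the y axis, and Bhlhe40 and Clock are among the 4 genes whose signs differ.

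The Arntl dimer binds the E-box CACGTG, so the promoters of the clock genes were searched for it. RefSeq windows (GRCm38.p6) were at hand for 15 of the 18 genes, and 4 of these held the motif in the 250 bases before an annotated start, as did 6.86% of all 27025 genes with a window. The motif reads the same on both strands. For each of the 4 genes the site nearest to a start is shown 5′ to 3′ on the gene's strand, with the E-box in capitals.
Per1, chr11:69098771-69098800, plus strand: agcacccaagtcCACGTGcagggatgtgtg
Cry1, chr10:85185097-85185126, minus strand: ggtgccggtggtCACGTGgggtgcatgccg
Tef, chr15:81802534-81802563, plus strand: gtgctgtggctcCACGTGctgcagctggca
Ciart, chr3:95882255-95882284, minus strand: cgtgcagaaccgCACGTGtctgggaggggg
The age differences of these genes at ZT12 under CR were -0.35 for Per1, 0.19 for Cry1, -0.13 for Tef and -0.09 for Ciart, on both sides of 0. A match is a description of the letters in the window.

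Of 17 tested members of the extracellular matrix and basement membrane list, 9 were lower and 8 higher in aged mice, with a median of -0.0028. Without aged array 3 the lower members were 14 and the median -0.09, and without aged arrays 2 and 3 together they were 15 and the median -0.25. At an unadjusted p under 0.05, 3 members were lower (1.76% of all genes were) and none was higher: Col6a1, Col4a2 and Col4a1, the partner chain of Col4a2. Col4a1 read 6.93, 6.42, 6.94 and 6.16 in aged arrays, against 7.07, 7.53, 7.10, 6.76 and 7.24 in adult arrays (-0.53 ± 0.21, SE; limma's unadjusted p = 0.012, adjusted p = 0.999). Aged arrays 1 and 3 overlapped adult array 4.

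Col4a1 and Col4a2 are neighbours that are transcribed in opposite directions, Col4a1 from the minus strand and Col4a2 from the plus strand. In RefSeq (GRCm38.p6, chromosome 8) their annotated starts, 11312826 and 11312805, lie 21 bases apart. The bases from one start to the other lie in both annotated transcripts, which overlap there. The stretch that holds both starts is shown on the plus strand, with the bases from one start to the other in capitals.
Col4a1 and Col4a2, chr8:11312801-11312830: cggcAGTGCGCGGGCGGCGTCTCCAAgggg
The chains differed by -0.53 and -0.69 under CR at ZT12, and by -0.12 and -0.31 on control diet. At ZT8 under CR the differences were -0.38 for Col4a1 and -0.57 for Col4a2, and at ZT20 they were -0.40 and -0.36. Those at ZT0, ZT4 and ZT16 are not given here, so these values do not show whether the chains differed across the day.

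Postn, which encodes periostin and is also on the bulge list, read 7.83, 7.81, 7.84 and 7.84 in aged arrays, against 8.27, 8.36, 8.28, 8.44 and 8.33 in adult arrays. The groups did not overlap and each was tight, but the fit across all arrays, in which Postn varied more in other groups, gave -0.51 ± 0.34 (SE; limma's unadjusted p = 0.14). Collagens and periostin are also made by fibroblasts, of whose 10 markers 6 passed the dim filter. The mean of those markers was 5.25, 5.94, 6.02 and 5.42 in aged arrays, against 5.47 to 5.80 in adult arrays, with Col1a2, Lum, Pdgfra and Dpt below the threshold. It was highest in aged arrays 2 and 3, and its part in the collagen and periostin differences was not tested. Matrix proteases and their inhibitors were higher in 10 and lower in 4 of 14, with 0.23 for Timp3, 0.14 for Mmp9 and 0.33 for Mmp3.

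Genes of DNA replication were lower in aged mice in 23 of 24 tested members, against 62.7% of all genes, with a median difference of -0.21 beside -0.04 over all genes. None passed the test, and 1 member, Mcm10, had an unadjusted p under 0.05. Mcm10, which starts replication forks, read 6.71, 6.71, 6.84 and 6.60 in aged arrays, against 6.65, 7.40, 7.13, 6.75 and 6.99 in adult arrays (-0.27). Mcm6, a subunit of the replicative helicase, and Gins1, its partner, differed by -0.36 and -0.44 with overlap. The mean of the list was 8.13, 7.90, 8.17 and 8.11 in aged arrays, against 8.37, 8.74, 8.30, 8.13 and 7.98 in adult arrays. Adult array 2 was the highest, and adult arrays 4 and 5 lay within the aged range. Without adult array 2 the lower members were 19 of 24 and the median was -0.11. On control diet at ZT12 the median of these genes was 0.02.

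DNA repair genes were lower in 19 of 20, with a median of -0.16, and none had an unadjusted p under 0.05. Chek2, a checkpoint kinase, read 6.38 and 6.11 in aged arrays 1 and 4 and 5.59 and 5.48 in aged arrays 2 and 3, against 5.94 to 6.43 in adult arrays (-0.34). Xpc, which finds damaged bases (-0.44), and Nbn, a part of the break-sensing complex (-0.33), were lowest in aged array 2. With aged arrays 2 and 3 left out, 10 of 20 repair genes were lower and the median was -0.04, while 20 of 24 replication genes were lower, with a median of -0.20. Genes of mitosis were lower in 12 of 20 with a median of -0.02, but in 5 of 20 with a median of 0.08 without adult array 2, in 8 of 20 without aged array 2 and in 7 of 20 after quantile normalization again; Cdc20 differed by 0.27, Kif20a by -0.17 and Kif11 by -0.24.

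Among p53 targets and senescence genes, 8 of 13 were higher, but 5 without aged array 1, and 6 without aged array 4 or adult array 3. Cdkn2b, an inhibitor of cell cycle kinases, read 5.14, 4.99, 5.09 and 5.50 in aged arrays, against 4.94, 4.97, 4.81, 4.83 and 4.69 in adult arrays. The groups did not overlap, by a margin of 0.02, and the difference was 0.33 ± 0.17 (SE; limma's unadjusted p = 0.054). Glb1, the lysosomal galactosidase used as a stain for senescence, differed by -0.25 and Sesn1, a stress-induced brake on mTOR, by -0.69, both with overlap.

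Of 14 glucocorticoid targets 11 were lower, with a median of -0.12, where 62.7% of all genes were lower. Without aged array 3 the lower members were 6 and the median was 0.02, so this array decided the direction. Ddit4, which restrains mTOR, read 8.17, 7.70, 7.09 and 8.21 in aged arrays, against 7.83, 8.13, 9.29, 8.66 and 8.49 in adult arrays (-0.69 ± 0.33, SE; limma's unadjusted p = 0.037, adjusted p = 0.999). Tsc22d3 (Gilz), a mediator of glucocorticoid action, read 9.56, 9.80, 9.64 and 9.69 in aged arrays, against 9.83, 10.14, 10.69, 10.10 and 10.04 in adult arrays. Its groups were apart (-0.49), while Klf9 (-0.31) overlapped. In the other direction, 1 of the 14 targets had every aged array above every adult array. Over all genes every aged array was below every adult array in 0.695% and above in 0.127%. Without aged arrays 2 and 3 together 7 of the 14 targets were lower and the median was -0.02.

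In insulin, IGF and FoxO signalling 12 of 17 were lower, a share near that of all genes, with a median of -0.12. The median was -0.04 without aged array 3, -0.06 without adult array 2 and -0.19 without adult array 4. Pik3r1, the regulatory subunit of PI3-kinase, read 9.68, 9.55, 9.37 and 9.52 in aged arrays, against 9.67, 9.91, 10.63, 9.63 and 10.71 in adult arrays. The difference of -0.58 ± 0.26 (SE; limma's unadjusted p = 0.028, adjusted p = 0.999) rested on adult arrays 3 and 5, which were over 0.7 above the other adult arrays. Foxo3, the fasting-responsive factor, showed the same adult arrays high, at 10.16 and 10.22 among adult values from 9.33, and differed by -0.48. Mtor differed by -0.23, with 0.02 and 0.03 on its other probe sets.

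Of 15 glycolysis genes 13 were higher, with a median of 0.13 on this diet and 0.07 on control diet; Ldha (0.19), Hk2 (0.47) and Aldoa (0.12) overlapped between the groups. Without single arrays or with other scaling, 11 to 14 were higher. Of 16 genes of fatty acid oxidation and ketogenesis 13 were lower, where 62.7% of all genes were. The median was -0.095 on this diet and 0.01 on control diet. Without adult array 2 the lower members were 9, and without aged array 1 they were 10. Ehhadh, a peroxisomal oxidation enzyme, read 4.84, 4.74, 4.52 and 4.59 in aged arrays, against 4.96, 5.41, 4.80, 4.89 and 5.03 in adult arrays (-0.34 ± 0.12, SE; limma's unadjusted p = 0.0062, adjusted p = 0.999). Ppara, the fasting-activated receptor that drives these genes, read 8.57, 8.53, 8.65 and 8.51 in aged arrays, against 8.91, 8.98, 8.88, 8.85 and 8.74 in adult arrays. Its groups did not overlap, at -0.31 ± 0.21 (SE). Angptl4, a target of Ppara, went the other way by 0.48, with aged arrays from 5.96 to 8.00 against 6.36 to 6.98 in adult arrays.

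Oxidative phosphorylation genes were lower in 17 of 19, by a median of -0.06 beside -0.04 over all genes, with Ndufa4 at -0.23, Sdhb at -0.14 and Uqcrc1 at -0.08. Without aged array 2 the lower members were 9 of 19, and without adult array 2 they were also 9, so either array decided the count. Cholesterol synthesis genes were higher in 10 of 16, but in 7 or 8 without aged array 1 or 4 or adult array 3 or 5; Lss differed by -0.26, Msmo1 by 0.39 and Dhcr7 by -0.26. Genes of fatty acid and triglyceride synthesis were higher in 9 of 15 (6 without aged array 4 and 6 without adult array 5), with -0.45 for the elongase Elovl5, -0.18 for Gpam and 0.17 for Acacb. Autophagy and lysosome genes were lower in 11 of 16 (7 after quantile normalization again), with -0.23 for Atg5, -0.21 for Ulk2 and 0.34 for the mitophagy receptor Bnip3.

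**Figure D5:**
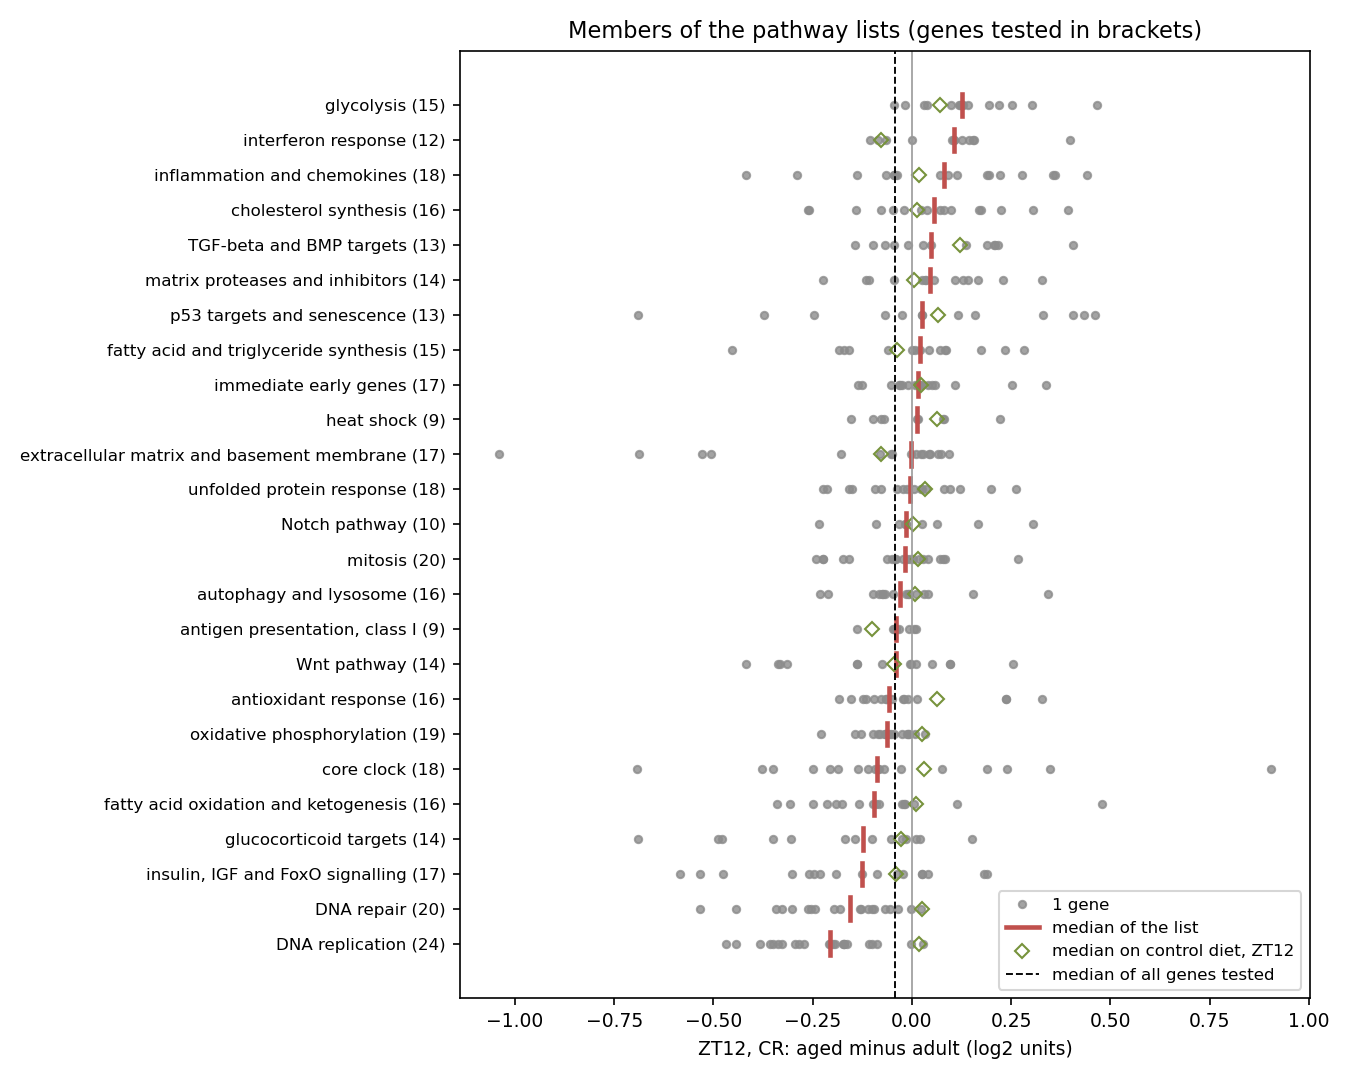
Aged minus adult difference at ZT12 under CR in log2 units (x axis) for every tested member of each pathway list (y axis, number of genes in brackets), with the list's median as a red bar, the median of the same list on control diet at ZT12 as an open diamond, and the median of all genes as a dashed line. The lists with the lowest medians are DNA replication (-0.21) and DNA repair (-0.16), and the single point furthest left is Col6a1.

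In the stress and signalling lists the direction often turned with a single array. The unfolded protein response had 9 lower and 9 higher of 18 (Herpud1 -0.21, Pdia4 -0.15, Hspa5 0.26), with 6 lower without aged array 2 or adult array 2. Heat shock had 5 of 9 higher, and 3 without aged array 4 or adult array 1 (Dnaja1 0.22, Hspb1 -0.08, Dnajb1 0.08). The antioxidant response had 12 of 16 lower, and 7 without aged arrays 2 and 3 together (Hmox1 0.24, Gsta4 -0.18, Srxn1 0.33). TGF-beta and BMP targets were higher in 8 of 13 (Id3 0.19, Tgfb2 0.14, Gadd45b 0.41), and Notch genes were lower in 6 of 10, but in 2 without aged array 3, in 3 without adult array 3 or 4 and in 4 without aged array 2 or adult array 1 (Jag1 0.31, Dll1 -0.23, Hey1 0.17).

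In the Wnt list 9 of 14 were lower, a share near that of all genes, but 5 without aged array 3 and 6 without adult array 1. Axin2, a target and inhibitor of the pathway, read 8.13, 8.01, 7.77 and 8.21 in aged arrays, against 8.33, 8.29, 8.57, 8.32 and 8.33 in adult arrays. The groups did not overlap (-0.34 ± 0.20, SE), and on control diet at ZT12 Axin2 differed by -0.35. Sfrp1, a secreted inhibitor, differed by -0.31 and Sp5, a target, by 0.25. Among immediate early genes 10 of 17 were higher (7 without aged array 4 and 8 without adult array 2); Egr3 read 8.50, 8.08, 7.97 and 8.09 in aged arrays, against 7.79, 7.93, 7.69, 7.85 and 7.88 in adult arrays. These groups were apart, at 0.34 ± 0.16 (SE; limma's unadjusted p = 0.039, adjusted p = 0.999), with Ier3 at 0.25 and Egr2 at -0.14.

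Immune lists held small differences. Interferon genes were higher in 8 of 12 (Irf1 0.40, Irf7 0.15, Rsad2 0.11), and class I antigen presentation genes were lower in 7 of 9, or in 4 after quantile normalization again (Psmb9 -0.14, H2-K1 -0.03, Psmb10 -0.05). Of 18 genes of inflammation and chemokines 10 were higher; Lcn2 differed by 0.22 (limma's unadjusted p = 0.038), Il18 by 0.44 and Cxcl14, which basal keratinocytes make, by -0.29. The mean of the Langerhans and dendritic cell markers was 6.501 to 6.884 in aged arrays, against 6.543 to 7.001 in adult arrays. For macrophage and neutrophil markers, of which 3 of 12 passed the dim filter, it was 5.08 to 5.52 in aged arrays, against 5.24 to 5.89 in adult arrays.

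Krt14, a basal keratin, differed by 0.05 ± 0.05 and Krt15 by -0.10 ± 0.07 (SE), and Trp63, the factor that keeps basal identity, by -0.15 (0.09 on 1 of its 4 probe sets). Differentiation genes were lower in 7 of 13, with 6 without aged array 1 and 5 without adult array 2 or 4 (Spink5 -0.31, Sbsn 0.18, Tgm3 -0.32). Genes of stressed or wound keratinocytes were higher in 6 of 8, with a median of 0.21 and none at an unadjusted p under 0.05. The higher members were 5 without aged array 2 or adult array 1, and 4 without aged arrays 2 and 3 together. Sprr1a, a cornified envelope protein, spanned 7.58 to 9.76 in aged arrays and 7.04 to 8.91 in adult arrays (0.79 ± 0.58, SE), and Krt16, a wound keratin, spanned 8.45 to 9.89 in aged arrays and 6.99 to 9.58 in adult arrays (0.75 ± 0.61, SE). Sprr1b differed by 0.49. The range within either group was wider than the difference in Sprr1a, and likewise in Krt16.

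Follicle markers were lower in 9 of 11 for the bulge and in 7 of 9 for the upper follicle and sebaceous gland, of which 4 were lower without aged arrays 2 and 3 together (Defb6 -0.42, Plet1 0.29, Krt79 -0.36). Growing follicle markers were higher in 8 of 12, but in 5 without aged array 3, in 6 without aged array 2 or adult array 1 and in 2 without aged arrays 2 and 3 together, with Krt73 at 0.43 (limma's unadjusted p = 0.026, adjusted p = 0.999), Krt71 at -0.24 and Msx1 at 0.13. Markers of mast cells, endothelial cells, adipocytes, skeletal muscle, red blood cells, T cells, macrophages, nerve and growing follicle shared the pattern of the fibroblast markers. Each of these list means was higher in aged arrays 2 and 3 than in aged arrays 1 and 4. For mast cells they were 5.28, 5.99, 6.04 and 5.45 in aged arrays, against 5.62 to 5.91 in adult arrays. Melanocyte markers, of which 3 of 8 passed the dim filter, went the other way, at 6.99, 6.84, 6.65 and 6.92 in aged arrays. The 10th percentile of signal was also higher in aged arrays 2 and 3, at 4.11 and 4.09, against 3.99 and 3.98 in aged arrays 1 and 4. The part of this background in the pattern was not tested.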

How the data were processed

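The 102 Affymetrix arrays came as 1 table of log2 values that the authors deposited, made by RMA per the submitters' processing notes; the version is not given in the sources used here. Per the labels' protocols, 25 ng of total RNA were amplified for 17 cycles before labelling, which can widen the spread between arrays. Of 45140 probe sets, 28898 carried 1 gene symbol, 551 several and 15588 none; 103 were controls. The brightest probe set stood for each of 17097 genes, and 13383 with a mean above 4.735, the 30th percentile of probe sets, were tested. limma 3.58.1 in R 4.3.3 fitted all arrays with 24 group means (2 ages by 2 diets by 6 times); differences are aged minus adult, with p adjusted by Benjamini-Hochberg over all tested genes and a threshold of 0.05. The number of arrays limits the precision. Mice were separate animals per the design text. An exact permutation of 4 against 5 arrays cannot go below p = 0.0159.

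Named were the 10 genes of smallest p in each direction (called genes were to be named first, and there were none; sex-linked and unnamed transcripts were left out), the core clock genes, the 3 members of smallest p of each pathway, keratinocyte and follicle list, and the 6 genes of smallest p in each of the 2 difference tests. For other cell types the level of the list is given. The 43 lists held 638 genes, of which 496 were tested; members and lists were chosen with earlier results of these data known. The fit was tested on simulated data. Same-numbered arrays of the groups deviated together in pairs 1, 3 and 4 and in opposite directions in pair 2 (r = 0.401, -0.319, 0.311 and 0.315). The numbers were not used as a block in the main fit, and fits with such a block are given below. Whether the numbers mark shared days of collection was not tested. Promoter sequences are from RefSeq, GRCm38.p6. No 2 arrays were duplicates; the closest pair correlated at 0.996.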

Additional observations from a re-analysis of the deposited data

Results flagged for a closer look

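Dixon's ratio, the gap of the furthest array divided by the range of its group, was computed in the aged and the adult group for the 128 named genes given with values and for 4 measures of the arrays, 264 ratios in all. It passed its 95% limit in 13, which is about the 1 in 20 that chance gives. Among the aged arrays these were Ltbp1 (0.909, array 4 low at 4.69), Hmox1 (0.907, array 4 high at 6.82), Pnpla6 (0.941, array 2 high at 9.11) and Krt15 (0.888, array 3 at 11.872, beside others from 11.855 to 11.857, so within a narrow range). Among the adult arrays, array 5 was far from the others for Timeless (0.855, low at 6.24), Gadd45b (0.762, low at 8.60), Egr2 (0.899, high at 11.42) and Cyp27b1 (0.759, high at 5.16). Adult array 3 was far for Elovl5 (0.737, low at 8.97) and Axin2 (0.864, high at 8.57), adult array 2 for Dll1 (0.816, low at 9.38) and Tefm (0.869, high at 5.73), and adult array 1 for Krt71 (0.715, low at 5.43).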

How the results depend on the processing

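limma called 0 genes for the age difference under CR at ZT12 and for both tests of its difference in every alternative run; at an unadjusted p under 0.05 they gave 38 to 768 genes (291 as reported), 56 to 274 (101) and 98 to 594 (176). The replicate block called 0 genes over all arrays and 0 on the 9 arrays, with 512 and 474 at an unadjusted p under 0.05, and array weights gave 421. Of 3178 values of 128 named genes under these alternatives 3120 kept their direction, and none was called. The cause of the 58 that turned was not tested. Some alternatives could not turn a direction, since they leave the group means as they are. These were the fits on only the 9 arrays or only the CR arrays, another estimate of the spread, and other filters on dim genes. Many of the named genes were also chosen for a small p on these same arrays. With array weights the turned values were Clock 0.15, Npas2 -0.012, Per2 0.076, Cry2 0.066, Rora 0.0037, Csnk1d 0.023, Hspb1 0.0042, Acacb -0.040, Egr2 0.11 and Rsad2 -0.023. The mean of a gene's probe sets gave Npas2 -0.029 and Csnk1d 0.097, and the most variable probe set gave Npas2 -0.13, Csnk1d 0.12, Dnaja1 -0.095, Mtor 0.031 and Trp63 0.086. Quantile normalization again gave Per2 0.0056 and Psmb10 0.020. Leaving out single arrays gave ranges across 0 for Acacb (-0.049 to 0.38), Clock (-0.28 to 0.072), Cry1 (-0.055 to 0.43), Csnk1d (-0.21 to 0.052), Egr2 (-0.27 to 0.0039), Npas2 (-0.052 to 0.20), Per2 (-0.18 to 0.041), Psmb10 (-0.19 to 0.072) and Rora (-0.060 to 0.035). The next 2 settings were chosen after seeing the data. Without aged arrays 2 and 3 the values were Clock 0.39, Npas2 -0.23, Per2 0.14, Cry2 0.096, Rora 0.048, Csnk1d 0.22, Chek2 0.011, Hspb1 0.039, Dhcr7 0.39, Gpam 0.0040, Acacb -0.30, Mtor 0.046, Hey1 -0.15, Egr2 0.26, Rsad2 -0.074, Psmb9 0.0086, Mmp9 -0.0077, Spink5 0.13, Defb6 0.19, Krt79 0.25 and Msx1 -0.048. With only the arrays whose Y-linked genes exceeded Xist they were Clock 0.11, Csnk1d 0.017, Msmo1 -0.015, Acacb -0.021, Egr2 0.10 and Sbsn -0.020. The 4 aged arrays, 2 of them of low range, limit all of these values, and dim genes such as Ltbp1 lie close to background.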
